A study of Mus musculus with 24 samples.

Results

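The genes described here are Trp53, which codes for the transcription factor p53, and 8 genes known as its targets, Mdm2, Cdkn1a, Ccng1, Perp, Phlda3, Trp53inp1, Zmat3 and Sesn2. They were chosen by name, and all 9 were found among the 20028 genes with a symbol on the arrays. RNA of mouse T helper cells was measured on 24 two-colour arrays, 14 of Th1 and 10 of Th2 cells, with 1 array for each of 24 conditions. The Th1 and Th2 cells had been polarised in culture from naive T cells of female C57BL/6 mice, and were either left unstimulated or reactivated. DMSO, the vehicle, was given on 6 arrays. JQ1, which blocks the bromodomains of BET proteins, was given on 10 arrays, at 50 or 500 nM. Flavopiridol, which inhibits P-TEFb, the kinase that releases RNA polymerase II into elongation, was given on 8 arrays, at 1 or 10 µM. Cells were taken after 6 hr, and additional Th1 arrays of DMSO and of 500 nM JQ1 after 24 hr. For Th2 cells with DMSO 1 label reads 6 and another 24 hr, so the time of every Th2 control is unclear. On each array the cells were labelled with Cy3 and set against naive CD4+CD62L+CD25-CD44lo T cells labelled with Cy5, with no dye swap. A log2 ratio of 0 is therefore the level of naive T cells.

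p53 is held at a low protein level in unstressed cells by Mdm2, a ubiquitin ligase that marks it for destruction. DNA damage and other stress stabilise the protein, which then binds DNA and switches on genes for cell cycle arrest, repair, metabolism and cell death. Because p53 is controlled mainly as a protein, the RNA level of Trp53 does not measure its activity. Mdm2 is itself a target and closes a feedback loop. Cdkn1a codes for p21, an inhibitor of cyclin-dependent kinases, and Ccng1 for cyclin G1. Perp and Trp53inp1 have been tied to cell death, and Phlda3 codes for an inhibitor of the kinase Akt. Zmat3 codes for an RNA-binding zinc finger protein, and Sesn2 for sestrin 2, a stress protein that restrains mTORC1. In T cells several of these genes also answer to activation and to other factors, so their levels are not a measure of p53 alone.

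The upstream sequences are shown because p53 acts on its targets through DNA, and because the members moved in different directions with the drugs. RefSeq promoters of build GRCm38.p6 were given for 6 of the 9 members, Phlda3, Sesn2, Mdm2, Ccng1, Trp53 and Cdkn1a, the last with 2 start sites. The 250 bases before each start were searched for the p53 half-site, a motif of 10 letters that reads the same on both strands. It was found in 7.13% of all 32851 promoters over the same length, and at least 2 copies were found in 0.259%. Among the members it was found before a start of Cdkn1a, Mdm2, Ccng1 and Trp53, and not before the other Cdkn1a start or those of Phlda3 and Sesn2. Each sequence below runs 5′ to 3′ on the gene's own strand up to the base before the start, with the matches in capitals.
Cdkn1a, chr17:29090729-29090978, plus strand: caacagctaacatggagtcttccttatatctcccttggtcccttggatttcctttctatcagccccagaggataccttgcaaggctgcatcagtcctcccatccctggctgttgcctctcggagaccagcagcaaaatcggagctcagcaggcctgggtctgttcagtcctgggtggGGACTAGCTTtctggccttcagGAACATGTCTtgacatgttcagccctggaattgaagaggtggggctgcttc
Mdm2, chr10:117710759-117711008, minus strand: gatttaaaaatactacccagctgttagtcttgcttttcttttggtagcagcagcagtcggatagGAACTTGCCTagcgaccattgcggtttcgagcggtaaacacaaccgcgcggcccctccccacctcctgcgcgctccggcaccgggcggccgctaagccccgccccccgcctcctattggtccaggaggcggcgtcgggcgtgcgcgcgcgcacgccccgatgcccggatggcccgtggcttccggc
Ccng1, chr11:40755287-40755536, minus strand: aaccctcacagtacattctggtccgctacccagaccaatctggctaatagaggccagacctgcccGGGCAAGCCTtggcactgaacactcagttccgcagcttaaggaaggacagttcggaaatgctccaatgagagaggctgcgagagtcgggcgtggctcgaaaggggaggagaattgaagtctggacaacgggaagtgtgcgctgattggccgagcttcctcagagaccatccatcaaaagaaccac
Trp53, chr11:69580109-69580358, plus strand: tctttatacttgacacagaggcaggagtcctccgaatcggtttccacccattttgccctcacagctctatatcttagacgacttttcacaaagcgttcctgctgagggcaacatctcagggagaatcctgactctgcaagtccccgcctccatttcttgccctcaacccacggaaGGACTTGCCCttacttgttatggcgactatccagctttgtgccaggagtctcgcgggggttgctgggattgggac
The Cdkn1a sequence held 2 matches, from 73 and from 51 bases before the start, with 12 bases between them. The match of Trp53 began 75 bases, that of Ccng1 185 bases and that of Mdm2 186 bases before the start. A match describes the letters only, and binding of p53 was not measured on these arrays.

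The sample channel was well above background for 43.8% to 52.0% of probes on the 16 DMSO and JQ1 arrays and for 35.5% to 41.5% on the 8 flavopiridol arrays. Cd3e and Cd3d were above background on all 24 arrays. Among the 16 DMSO and JQ1 arrays, the Th1 factor Tbx21 had log2 ratios of 5.13 to 6.80 on the 10 Th1 arrays and of -0.05 to 4.64 on the 6 Th2 arrays, where the 3 high values were those of reactivated cells. The Th2 factor Gata3 lay between 1.59 and 3.06 on the Th2 arrays and between -1.004 and 0.55 on the Th1 arrays. In reactivated Th1 and Th2 cells the Th2 marker Il1rl1 was at 1.71 to 6.29 and 1.18 to 3.91. Il13, also a Th2 marker, was at 1.27 to 4.60 and 3.32 to 4.85. The Th1 marker Cxcr3 was at 2.10 to 5.18 and -0.40 to 4.11, so that all these overlapped. Ifng (8.33 to 8.59 and 4.79 to 6.20), Il4 (1.15 to 4.50 and 6.96 to 8.02), Il5 and Il12rb2 did not. Il2 was at 6.71 to 7.50 on the 8 reactivated and at 0.14 to 1.88 on the 8 unstimulated arrays. Nr4a1 and Egr2 also separated the states in both cell types. Cd69 did so in Th2 but not in Th1 cells, where it was at -2.22 to 1.19 unstimulated and -0.0009 to 0.99 reactivated. On the reactivated flavopiridol arrays Il2 was at 0.17 to 0.97 in Th1 and 0.33 to 2.22 in Th2 cells. It was above background on 1 of 2 of these arrays in each cell type. Nr4a1 and Egr2 lay there below all reactivated DMSO and JQ1 arrays, while Cd69 overlapped them. Of the 3 myeloid markers, Lyz2 was above background on 0 of the 24 arrays, and Itgam and Csf1r on all 24. Csf1r lay between -0.48 and 0.22 on the 16 DMSO and JQ1 arrays and between 1.09 and 2.06 on the 8 flavopiridol arrays, and Itgam between -1.15 and -0.55 and between -3.50 and -1.47, so that neither overlapped. Of the NK cell markers, Klrb1c was above background on 0 arrays and Ncr1 on 1, a flavopiridol array. The B cell markers Cd79a and Ms4a1 were above background on all 6 Th2 arrays with DMSO or JQ1, Ms4a1 at log2 ratios of 2.47 to 4.03. On the 10 such Th1 arrays Ms4a1 was above background on all 10 and Cd79a on 3. Cd8a was above background on 9 of these 10, at -0.05 to 1.87 over all 10, and on 0 of the 6 Th2 arrays, and Cd8b1 on 8 of the 10 and 5 of the 6. Whether such cells or transcripts contributed to the members' values was not tested. The arrays measure bulk RNA, in which fewer cells of a type and less RNA per cell cannot be told apart.

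The probes of 8 members were above background in the sample channel on all 24 arrays. That of Perp was above background on 20, and missed on the 4 Th2 flavopiridol arrays. Over all 24 arrays Cdkn1a ranged from 0.92 to 5.40, Phlda3 from 0.17 to 4.25 and Sesn2 from 0.08 to 3.47 on the log2 scale, so their ratios to naive cells were above 0 on every array. Perp spanned the widest range, from 0.11 to 8.67. Trp53 ranged from -0.50 to 0.99, Mdm2 from -2.14 to 0.42, Ccng1 from -0.85 to 1.20, Zmat3 from -1.002 to 1.17 and Trp53inp1 from -3.45 to 1.00.

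**Figure D1:**
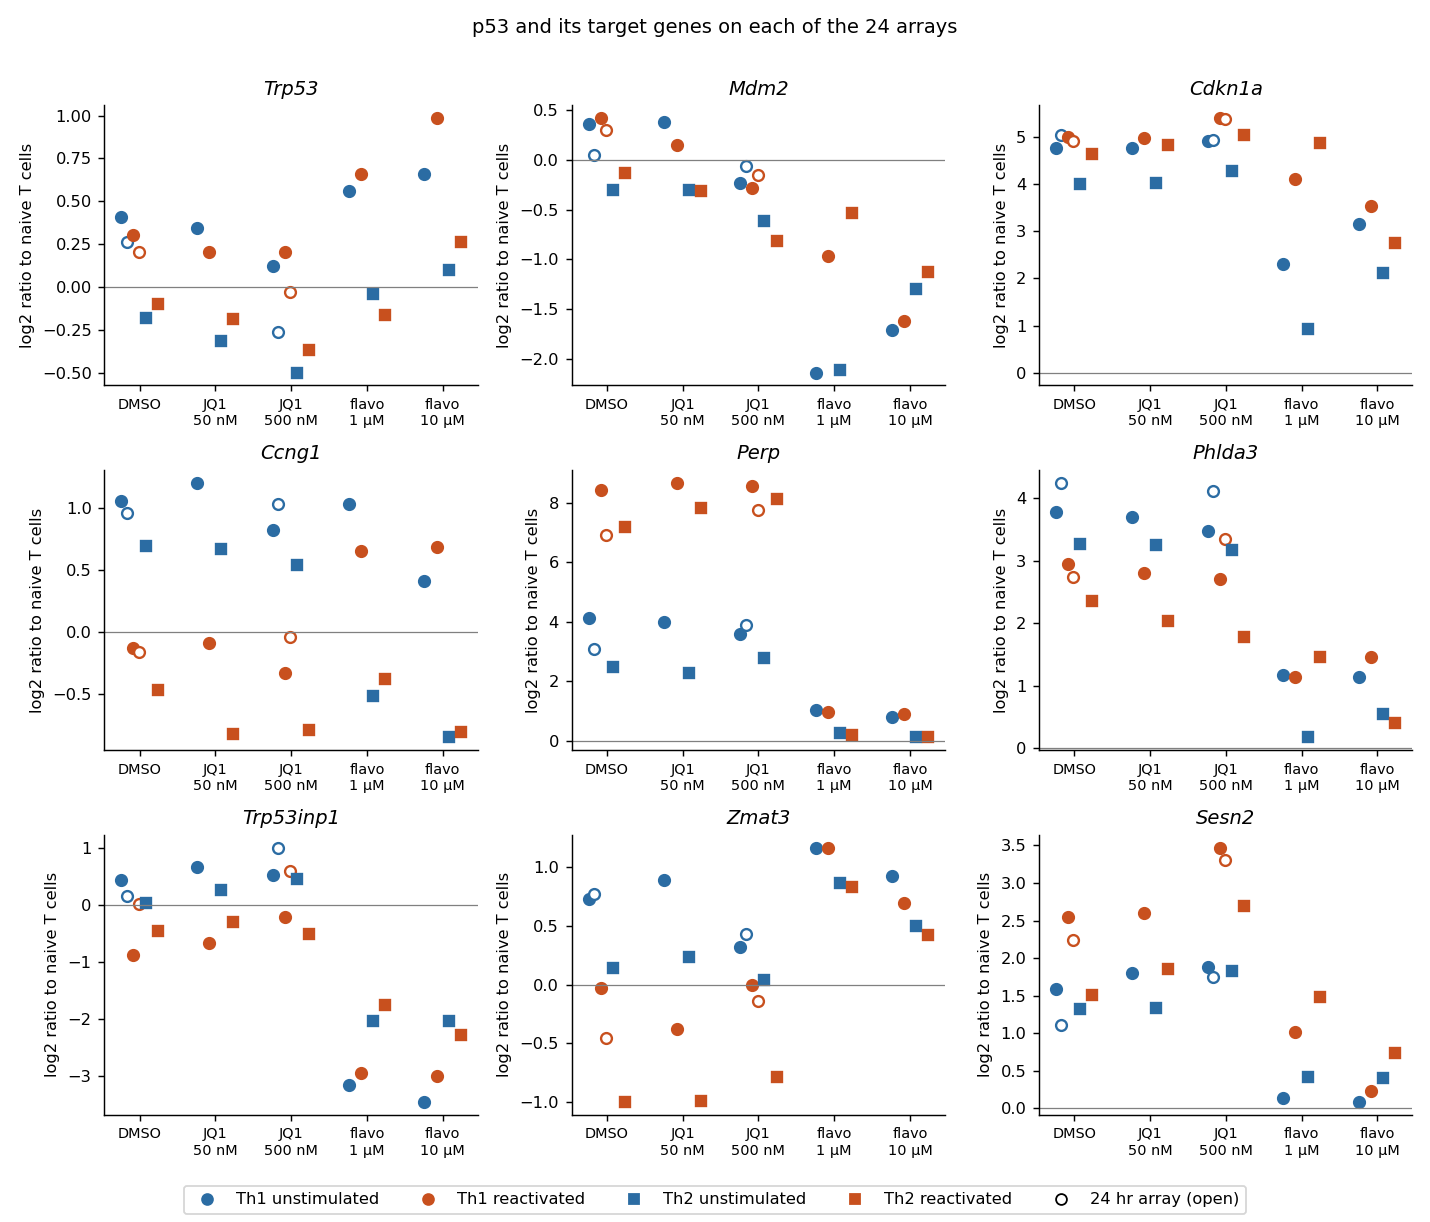
Log2 ratio to naive T cells (y axis, own scale for each gene) of the 9 members on each of the 24 arrays, by treatment (x axis; flavo, flavopiridol), with circles for Th1, squares for Th2, blue for unstimulated, orange for reactivated and open symbols for 24 hr. Perp lay between 6.92 and 8.67 in reactivated cells with DMSO or JQ1 and between 0.11 and 1.02 on all 8 flavopiridol arrays.

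Reactivation without drug moved 5 of the 9 genes. Perp and Sesn2 rose, and Ccng1, Phlda3 and Zmat3 fell, while Trp53, Mdm2, Cdkn1a and Trp53inp1 did not pass the test. The comparison was fitted with limma on the 6 DMSO arrays, with their 3 pairs (Th1 at 6 hr, Th1 at 24 hr and Th2) as a block. Genes were called at a Benjamini-Hochberg adjusted p below 0.05 over the 12530 genes tested, and 50.9% of those genes were called, 21.9% higher and 29% lower. The members' share was thus close to that of all genes. The 3 pairs stand in for replicates and leave 2 residual degrees of freedom, so that the p-values measure the spread between pairs. With loess 2746 genes were higher and 3637 lower, and under spike-in centring 3496 and 2301, with the median of all genes at 0.16. Here and below, a share or median of all genes in a fit is over the genes it tested.

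Perp, which codes for a membrane protein of desmosomes, was at 4.13 (Th1, 6 hr), 3.098 (Th1, 24 hr) and 2.48 (Th2) in unstimulated cells. In reactivated cells it was at 8.44, 6.92 and 7.19 in the same order. All 3 reactivated arrays were above all 3 unstimulated ones, and the rise was 4.28 (SE 0.19, limma adjusted p = 0.000122), or 19.5-fold. The reference channel of this probe was above background on 3 of the 24 arrays, so its level relative to naive cells is uncertain, whereas the change rests on the sample channel, where it was 4.31. The same rise was seen in each pair of JQ1 arrays, from 3.84 to 5.53.

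Sesn2 was at 1.58, 1.11 and 1.33 in the unstimulated and at 2.54, 2.24 and 1.51 in the reactivated DMSO arrays. The rise was 0.96 and 1.13 in the Th1 pairs and 0.18 in the Th2 pair, and the reactivated Th2 value lay below an unstimulated Th1 value. The fitted rise was 0.76 (SE 0.20, limma adjusted p = 0.0210). It did not pass the test without either array of the Th1 6 hr pair (0.66) or of the Th1 24 hr pair (0.57).

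Ccng1 fell from 1.05, 0.96 and 0.69 in unstimulated cells to -0.13, -0.16 and -0.47 in reactivated cells. Its 3 falls were nearly alike, 1.18, 1.12 and 1.16 on the log2 scale, and the fit gave -1.15 (SE 0.12, limma adjusted p = 0.000658). Phlda3 went from 3.79, 4.25 and 3.28 to 2.96, 2.73 and 2.36, a change of -1.09 (SE 0.17, limma adjusted p = 0.00276). Zmat3 went from 0.73, 0.78 and 0.15 to -0.03, -0.46 and -1.002, a change of -1.05 (SE 0.14, limma adjusted p = 0.00177). For all 3 genes, as for Perp and for Trp53inp1, which was not called, the reactivated and unstimulated arrays did not overlap. The share of all genes without such overlap was not counted. The calls of Ccng1, Perp, Phlda3 and Zmat3 held in each of the 18 alternatives run for them.

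Trp53 barely differed between the states, with pair differences of -0.10, -0.06 and 0.08. Mdm2 differed by 0.05, 0.25 and 0.17, and Cdkn1a by 0.22, -0.12 and 0.63. The fitted changes were -0.03 for Trp53, 0.16 for Mdm2 and 0.24 for Cdkn1a, with SEs of 0.12, 0.12 and 0.17. Trp53inp1 was lower in reactivated cells in all 3 pairs, by 1.32, 0.14 and 0.49, and missed the threshold at -0.65 (SE 0.23, limma adjusted p = 0.0556). Without the 24 hr pair it was called, at -0.90.

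With 10 µM flavopiridol, 6 members fell, Perp, Trp53inp1, Phlda3, Cdkn1a, Mdm2 and Sesn2, and 2 rose, Trp53 and Zmat3, relative to the bulk of genes. Ccng1 did not pass the test. The fit used 12 arrays, DMSO and both doses in Th1 and Th2 cells, unstimulated and reactivated, with these 4 contexts as a block. Of the 12432 genes tested 48.9% were called, 15.4% higher and 33.5% lower, against 8 of 9 members. The median of the members was -1.53 and that of all genes -0.22. Flavopiridol arrays lay on other slides than their DMSO controls, so that slide and drug cannot be told apart within a context. With slide as a random block 5 members were called, Mdm2, Perp, Phlda3, Trp53inp1 and Sesn2. The same 5 were called in the Th1 contexts alone, which leave out the Th2 controls of unclear time. The share of 48.9% of all genes belongs to the main fit and not to these alternatives, whose shares are not given. Markers differed between these arrays too, in both directions. On the 4 Th1 flavopiridol arrays Tbx21 was at 1.01 to 2.30, below all 10 Th1 arrays with DMSO or JQ1, and Il12rb2 at 1.64 to 3.51, above all 10. Within each state Ifng did not overlap either, at 7.60 to 8.15 against 5.48 to 7.15 in unstimulated and 7.92 to 7.94 against 8.33 to 8.59 in reactivated Th1 cells, while Cxcr3 lay within the range of the other arrays in both states. On the 4 Th2 flavopiridol arrays Gata3 was at -1.13 to -0.72, below all 6 Th2 arrays with DMSO or JQ1, and Il1rl1 lay within their range in both states. In reactivated Th2 cells Il4 was at 2.83 to 3.62 against 6.96 to 8.02, Il5 at 0.56 to 0.69 against 2.94 to 3.66 and Il13 at 0.60 to 0.81 against 3.32 to 4.85. In unstimulated Th2 cells Il5 was above the other arrays, at 0.69 to 0.92 against 0.05 to 0.09, and Il4 and Il13 overlapped them. The CD8 T cell markers were higher with flavopiridol in Th1 cells, Cd8a at 1.92 to 2.44 against -0.05 to 1.87 and Cd8b1 at -0.12 to 0.04 against -1.86 to -0.82. In Th2 cells Cd8b1 was at -0.66 to -0.61 against -1.97 to -1.26, and Cd8a was above background on none of the Th2 arrays. The B cell marker Ms4a1 was also lower on the 4 Th2 arrays, at 1.64 to 2.26, and not above background on the 4 Th1 arrays. Their part in the members' changes was not tested.

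Perp fell from 4.13 to 0.79 in unstimulated and from 8.44 to 0.88 in reactivated Th1 cells with 10 µM flavopiridol. In Th2 cells it fell from 2.48 to 0.12 and from 7.19 to 0.11, and there its probe was not above background with the drug. The fitted change was -5.08 (SE 0.90, limma adjusted p = 0.00186). In the sample channel alone the level was at least 26.7-fold lower on average. The 2 of 4 arrays not above background were counted at the lowest signal above it, or at their own where higher. With 1 µM the values were 1.02, 0.97, 0.24 and 0.19, and no array with either dose overlapped the DMSO arrays.

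Trp53inp1 fell from 0.43 to -3.45 and from -0.89 to -3.00 in unstimulated and reactivated Th1 cells, and from 0.03 to -2.03 and from -0.46 to -2.28 in Th2 cells. Its fitted change was -2.47 (SE 0.34, limma adjusted p = 0.000536). A second, dimmer probe of the gene fell by 1.07. Phlda3 fell from 3.79 to 1.14 and from 2.96 to 1.46 in Th1 cells and from 3.28 to 0.55 and from 2.36 to 0.40 in Th2 cells, a change of -2.21 (SE 0.33, limma adjusted p = 0.000763). The arrays with 10 µM flavopiridol lay below all DMSO arrays for both genes.

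Mdm2 was at 0.37, 0.42, -0.30 and -0.13 on the DMSO arrays of unstimulated Th1, reactivated Th1, unstimulated Th2 and reactivated Th2 cells. With 10 µM flavopiridol it was at -1.71, -1.62, -1.30 and -1.13 in that order. The change was -1.53 (SE 0.33, limma adjusted p = 0.00476), or 2.88-fold, and the 2 sets did not overlap. Sesn2 went from 1.58, 2.54, 1.33 and 1.51 to 0.08, 0.23, 0.40 and 0.73, a change of -1.38 (SE 0.27, limma adjusted p = 0.00325). For Mdm2 and Sesn2, as for Perp, Phlda3 and Trp53inp1, the fall with 10 µM was called in every alternative run.

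Trp53 itself was at 0.41, 0.30, -0.18 and -0.10 with DMSO and at 0.66, 0.99, 0.10 and 0.26 with 10 µM flavopiridol. It was higher in all 4 contexts, by 0.25 to 0.68, and the fitted rise was 0.39 (SE 0.12, limma adjusted p = 0.0258). The call was lost without the reactivated Th1 DMSO array (0.31) and without the reactivated 10 µM array of Th1 (0.33) or of Th2 cells (0.37). Zmat3 was at 0.73, -0.03, 0.15 and -1.002 with DMSO and at 0.92, 0.69, 0.50 and 0.43 with the drug, a rise of 0.67 (SE 0.22, limma adjusted p = 0.0327), from 0.19 in unstimulated Th1 to 1.43 in reactivated Th2 cells. This call was lost without 6 of the 12 arrays, namely either reactivated DMSO array or any array with 10 µM, with values between 0.42 and 0.73.

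The direction of these 2 rises depended on how arrays were scaled. Loess sets each array's typical ratio near 0 whatever the total amount of RNA. In median centring the centre was the median of all spots but controls, whether above background or not. The median of all genes, taken over the genes tested, then moved from -0.22 to -1.05, and Trp53 and Zmat3 came to -0.77 and -0.68. When they were centred on the spike-in RNA added to each labelling, the median of all genes came to -1.68, Trp53 to -1.40 and Zmat3 to -1.31. With the spike-in shift after loess the median was -0.93, Trp53 -0.31 and Zmat3 -0.03. Over all genes, 1910 were higher and 4166 lower with loess, against 285 and 8290, 19 and 11346, and 273 and 7135 under these 3 scalings. Relative to the median of all genes, Trp53 was higher by 0.28 to 0.62 and Zmat3 by 0.37 to 0.90 under all 4 scalings. The 6 members that fell were lower under all 4 scalings, each by 1.38 or more.

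**Figure D2:**
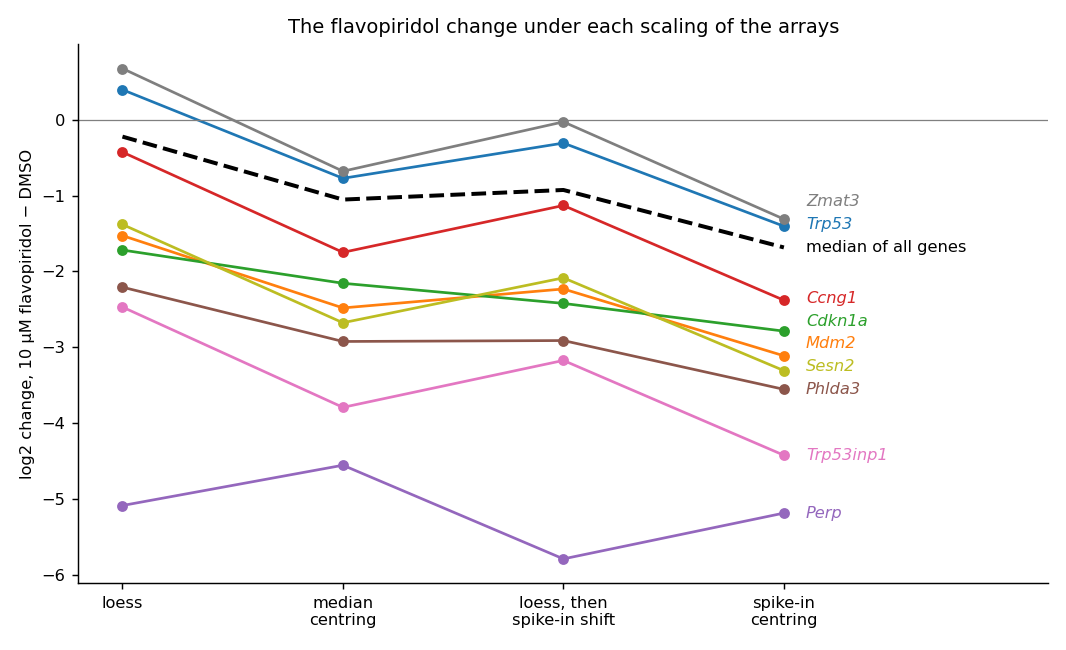
Log2 change with 10 µM flavopiridol against DMSO (y axis) of the 9 members and of the median gene (dashed) under 4 scalings of the arrays (x axis), as fitted by limma over 4 contexts. Trp53 goes from 0.39 with loess to -1.40 with spike-in centring and stays above the median of all genes.

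Cdkn1a needs its channels shown apart. In the sample channel its log2 intensity was 10.46 to 12.87 on the 6 DMSO arrays and 7.84 to 9.25 on the 4 arrays with 10 µM flavopiridol. The reference on every array was naive T cell RNA, yet its Cdkn1a signal ran from 6.45 to 8.06 on the DMSO arrays and from 5.64 to 5.95 on the 8 flavopiridol arrays. On 6 of those 8 the reference was not above background. The ratio was 4.78, 4.999, 4.01 and 4.64 with DMSO and 3.16, 3.53, 2.12 and 2.75 with 10 µM, a change of -1.72 (SE 0.52, limma adjusted p = 0.0246). In the sample channel alone the change was -3.38. With the scanner software's log ratio it turned to 1.91, and a second, dimmer probe gave -0.17. The call was also lost without any of 4 arrays, unstimulated Th1 DMSO (-1.58), unstimulated Th2 DMSO (-1.43), and reactivated Th1 (-1.69) or Th2 cells (-1.36) with 10 µM. Phlda3 showed a smaller drift of its reference signal, over 1.39 on the log2 scale, while those of Trp53 and Mdm2 spanned 0.24 and 0.31.

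**Figure D3:**
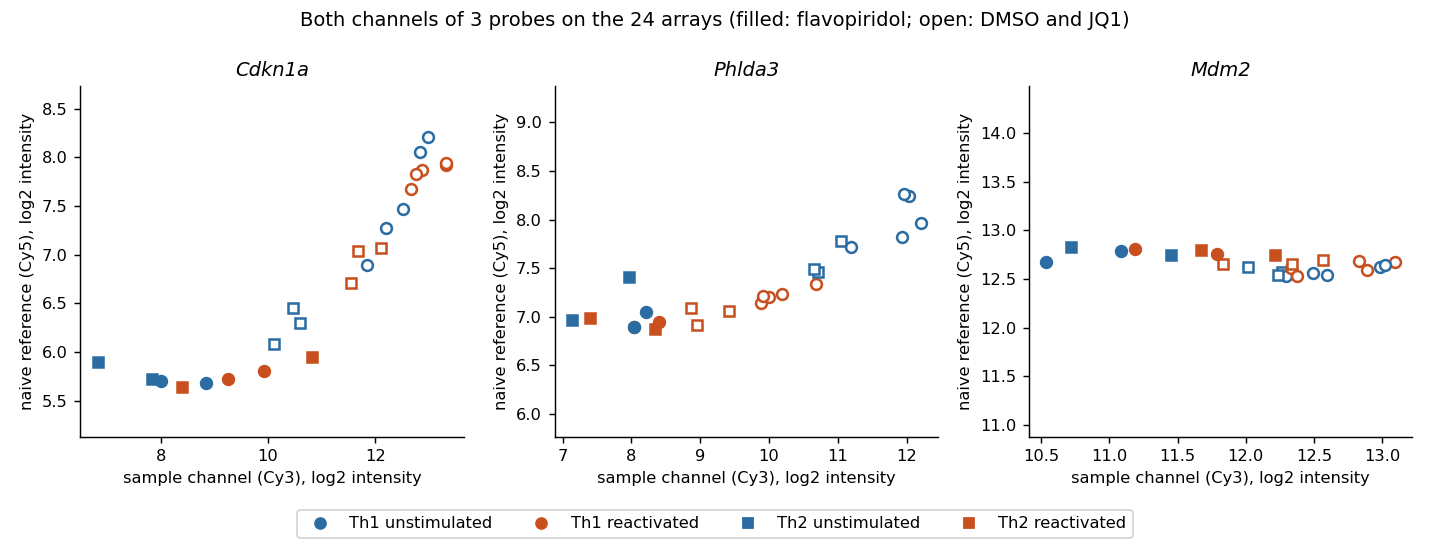
Log2 intensity of the naive reference channel (y axis, 3.6 log2 units in each panel) against that of the sample channel (x axis) for Cdkn1a, Phlda3 and Mdm2 on the 24 arrays, with filled symbols for flavopiridol. The reference signal spans 2.57 for Cdkn1a, 1.39 for Phlda3 and 0.31 for Mdm2.

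Ccng1 differed between contexts with 10 µM flavopiridol. It was lower by 0.65 in unstimulated Th1, by 1.54 in unstimulated Th2 and by 0.34 in reactivated Th2 cells, and higher by 0.81 in reactivated Th1 cells. The fit gave -0.43 (SE 0.33, limma adjusted p = 0.308). Without the reactivated Th1 DMSO array it was called, at -0.78. It was also called lower under the other scalings, at -1.75 under median centring (limma adjusted p = 0.00672), -2.38 under spike-in centring (limma adjusted p = 0.000433) and -1.13 with the spike-in shift (limma adjusted p = 0.0403).

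With 1 µM flavopiridol 7 members were called, 6 lower and 1 higher, beside 51.7% of all genes tested, 16.2% higher and 35.4% lower. Perp was at least 26.0-fold lower in the sample channel, which is also the fold measured, its probe being not above background on 2 of the 4 arrays. Its fitted change was -4.95. Trp53inp1 changed by -2.25, Phlda3 by -2.11, Cdkn1a by -1.56, Mdm2 by -1.53 and Sesn2 by -0.98, with limma adjusted p of 0.000723 to 0.0345. Zmat3 rose by 1.04 (SE 0.22, limma adjusted p = 0.00402) and turned to -0.15 under median and to -0.67 under spike-in centring. The Sesn2 call was lost without the unstimulated 1 µM array of Th1 (-0.84) or of Th2 cells (-0.93), and that of Cdkn1a without 7 of the 12 arrays, at -1.08 to -1.74. Over all alternatives the call was lost in 5 of 25 for Sesn2 and in 14 of 26 for Cdkn1a. With the scanner software's ratio Cdkn1a turned to 1.21. Trp53 was not called at this dose, at 0.15, and over 25 alternatives it lay between -1.36 and 0.43 and turned in 4. Ccng1 was at -0.09 and lay between -1.74 and 0.38, turned in 5 and called in 2. The 10-fold step in dose gave no called difference for any member, where limma called 1.88% of all genes, 1.5% higher and 0.378% lower. The 9 differences between doses ran from -0.40 to 0.25, with none at an unadjusted p below 0.05.

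At 1 µM, Cdkn1a, Mdm2, Sesn2 and Trp53inp1 were higher in reactivated than in unstimulated cells of both types. Cdkn1a was at 2.30 in unstimulated and 4.11 in reactivated Th1 cells, and at 0.92 and 4.86 in Th2 cells. Mdm2 was at -2.14 and -0.97 in Th1 and at -2.11 and -0.54 in Th2 cells. The steps in Th1 and Th2 cells were 0.88 and 1.06 for Sesn2 and 0.22 and 0.28 for Trp53inp1. At 10 µM the steps were 0.36 and 0.63 for Cdkn1a, 0.08 and 0.17 for Mdm2, 0.14 and 0.33 for Sesn2, and 0.46 and -0.25 for Trp53inp1. These are differences of single arrays, and their dependence on dose was not tested.

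JQ1 at 500 nM moved 5 of the 9 members. Sesn2 and Cdkn1a rose, and Mdm2, Phlda3 and Trp53 fell. In the matching 12-array fit 47.6% of the 12911 genes tested were called, 17.7% higher and 29.9% lower, which is near the members' share. The median of the members and that of all genes were both -0.07. Over all genes 2282 were higher and 3862 lower, which became 736 and 5818 under median centring, 147 and 5025 under spike-in centring and 137 and 3840 with the spike-in shift. Th1 JQ1 and DMSO arrays of 6 hr shared a slide, and Th2 JQ1 arrays lay on another slide than their DMSO controls. Within the Th1 contexts, and so within that slide, Mdm2 was the member called, at -0.65 (limma adjusted p = 0.0206), and Sesn2 was at 0.61 (limma adjusted p = 0.0768). The share of 47.6% of all genes belongs to the 12-array fit and not to this one, whose share is not given.

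Mdm2 went from 0.37, 0.42, -0.30 and -0.13 with DMSO to -0.23, -0.28, -0.61 and -0.82 with 500 nM JQ1, in the order of contexts used above. It was lower in all 4 contexts, by 0.31 to 0.70, with a fitted change of -0.58 (SE 0.09, limma adjusted p = 0.000341). Trp53 was also lower in all 4, at 0.12, 0.20, -0.50 and -0.37, a change of -0.24 (SE 0.07, limma adjusted p = 0.0153) that was lost without the unstimulated Th2 DMSO array (-0.22), in the Th1 contexts alone (-0.19) and with the spike-in shift (-0.69, limma adjusted p = 0.0636). Phlda3 was at 3.48, 2.70, 3.17 and 1.77, a change of -0.31 (SE 0.08, limma adjusted p = 0.0106) that was lost with the scanner software's ratio (-0.18) and in the Th1 contexts alone (-0.28). Under median and spike-in centring the falls were larger, -0.86 and -1.08 for Mdm2, -0.51 and -0.72 for Trp53 and -0.59 and -0.81 for Phlda3, where the median of all genes was -0.28 and -0.50. The 500 nM arrays overlapped the DMSO arrays for each of these genes, since contexts differed by more than the drug changed them.

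Sesn2 rose from 1.58, 2.54, 1.33 and 1.51 to 1.88, 3.47, 1.83 and 2.69. The rise was 0.73 (SE 0.14, limma adjusted p = 0.00170), or 1.65-fold, and was seen in all 4 contexts, from 0.29 to 1.18. It was 0.37 under median centring (limma adjusted p = 0.0430) and was not called under spike-in centring (0.15, limma adjusted p = 0.633) or with the spike-in shift (0.28, limma adjusted p = 0.434), where the median of all genes was -0.50 and -0.52. Cdkn1a was at 4.92, 5.40, 4.29 and 5.04, higher in all 4 contexts by 0.15 to 0.40, with a fitted rise of 0.31 (SE 0.08, limma adjusted p = 0.00704). Its sample channel alone changed by 0.095, its second probe by -1.16, and its ratio by -0.04 under median and by -0.26 under spike-in centring. Ccng1 (-0.23, limma adjusted p = 0.0540), Trp53inp1 (0.28, limma adjusted p = 0.0690), Perp (0.21) and Zmat3 (-0.07) did not pass the test. Ccng1 was called lower under median (-0.56) and spike-in centring (-0.78), and Zmat3 under median centring (-0.39).

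**Figure D4:**
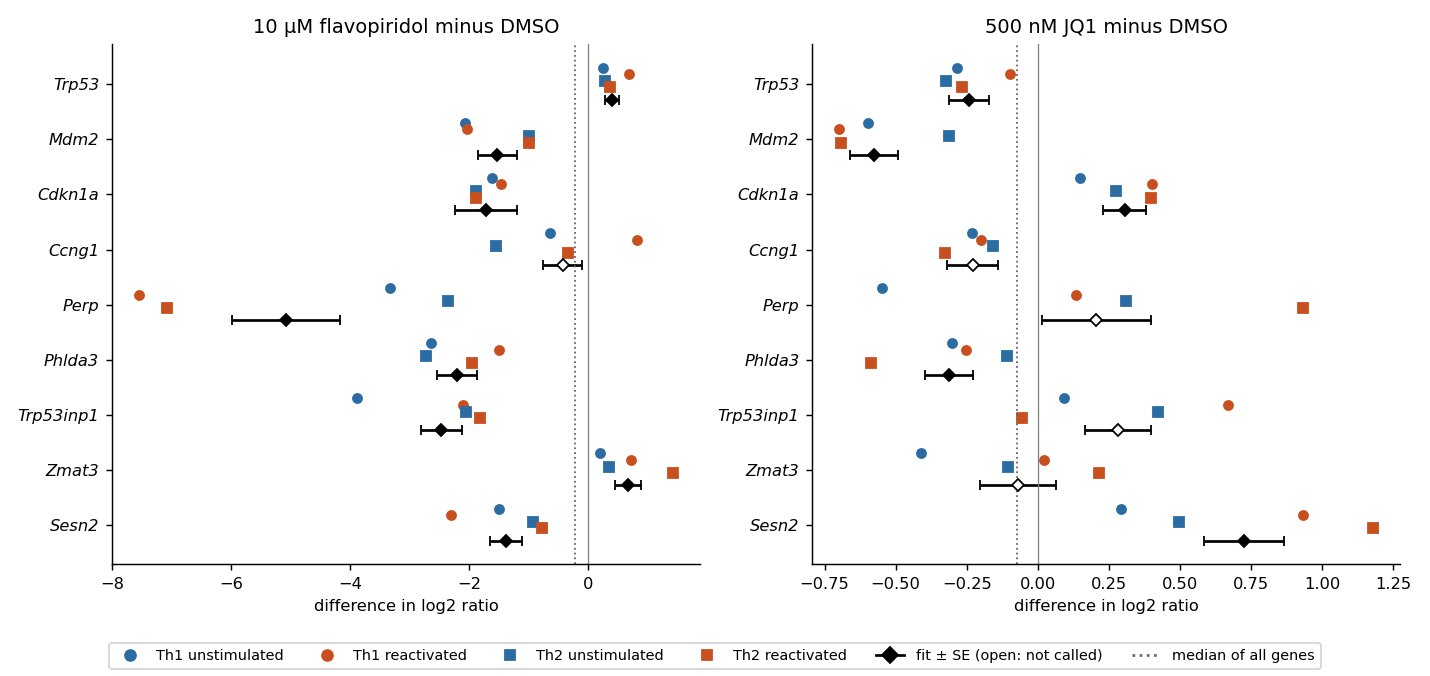
Difference in log2 ratio from the DMSO array of the same context (x axis) for the 9 members (y axis), left for 10 µM flavopiridol and right for 500 nM JQ1 on a narrower axis. Coloured points are the 4 contexts, black diamonds the limma estimate with its SE, open where not called, and the dotted line is the median of all genes; Mdm2 was at -1.53 with flavopiridol and -0.58 with JQ1.

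With 50 nM JQ1 limma called 0 of the 9 members, and 0 had an unadjusted p below 0.05, beside 0.341% of all genes called, 0.256% higher and 0.0852% lower. The 9 changes lay between -0.15 and 0.21. Between 500 and 50 nM, 3 members differed, beside 31.3% of all genes, 10.7% higher and 20.5% lower. Sesn2 was higher by 0.57 and Cdkn1a by 0.26 at the higher dose, and Mdm2 was lower by 0.46, with limma adjusted p of 0.0110, 0.0243 and 0.00252.

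In the Th1 arrays of 24 hr, 500 nM JQ1 was set against DMSO on the same slide, with 1 array on each side and no test. Sesn2 was higher by 0.64 in unstimulated and by 1.06 in reactivated cells, Trp53inp1 by 0.85 and 0.59, and Perp by 0.80 and 0.82, whereas at 6 hr Perp had differed by -0.55 and 0.13. Mdm2 was lower by 0.12 and 0.46, and Trp53 by 0.53 and 0.23. Phlda3, lower at 6 hr, differed by -0.12 and 0.61, and Cdkn1a by -0.10 and 0.46. The SD of the difference between the 24 and 6 hr DMSO arrays over all genes was 0.37 in unstimulated and 0.30 in reactivated Th1 cells.

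The 2 drugs were compared directly at their higher doses in a fit of 20 arrays, all those of 6 hr and the Th2 controls. The doses differ in amount, and the comparison is of these 2 conditions only. Of the 9 members 8 differed, beside 56.8% of the 13114 genes tested, 22.9% higher and 33.9% lower. The log2 difference of flavopiridol from JQ1 was -5.29 for Perp, -2.75 for Trp53inp1, -2.11 for Sesn2, -2.02 for Cdkn1a, -1.90 for Phlda3 and -0.95 for Mdm2. The Perp probe was not above background on 2 of the 4 arrays with 10 µM flavopiridol, so that its value is limited by the background. The difference of Cdkn1a turned to 1.44 with the scanner software's ratio and to 0.99 with its second probe, and was -0.52 and not called with the mean of its probes. Trp53 was higher by 0.64 and Zmat3 by 0.74, which became -0.27 and -0.29 under median and -0.68 and -0.70 under spike-in centring, where the median of all genes was -0.62 and -1.03. The limma adjusted p ran from 7.54e-06 for Sesn2 to 0.0147 for Mdm2, and Ccng1 was not called (-0.20, limma adjusted p = 0.636). Ccng1 was called lower under median centring (-1.19, limma adjusted p = 0.0335) and spike-in centring (-1.60, limma adjusted p = 0.00771). The Mdm2 call was lost without the unstimulated Th1 array with 500 nM JQ1 (-0.84) or the reactivated Th1 array with 10 µM flavopiridol (-0.79). 

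Whether a drug changed reactivated and unstimulated cells unlike was tested by interaction terms with 2 residual degrees of freedom. For 10 µM flavopiridol limma called 3 members, beside 35.2% of all genes, 20.3% higher and 14.9% lower. For 500 nM JQ1 it called 2, both higher, beside 13.8% of all genes, 6.25% higher and 7.55% lower. The fall of Perp with flavopiridol was larger in reactivated cells, with a difference of -4.47 on the log2 scale (SE 0.19, limma adjusted p = 0.00134). With the scanner software's ratio it was -2.52 and not called. Its step on reactivation, 4.31 in Th1 and 4.71 in Th2 cells with DMSO, was 0.09 and -0.01 with 10 µM and -0.06 and -0.05 with 1 µM, where the probe was near or below background, so that this difference follows from the step with DMSO and has no exact size. Ccng1 differed by 1.33 (SE 0.22, limma adjusted p = 0.00821), and its step on reactivation went from -1.18 and -1.16 to 0.28 and 0.05 with 10 µM. Without either Th1 array of 10 µM the Ccng1 difference was 1.08 and not called. Zmat3 differed by 0.80 (SE 0.19, limma adjusted p = 0.0251), and its call was lost without any of the 8 flavopiridol arrays, at 0.62 to 0.99.

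**Figure D5:**
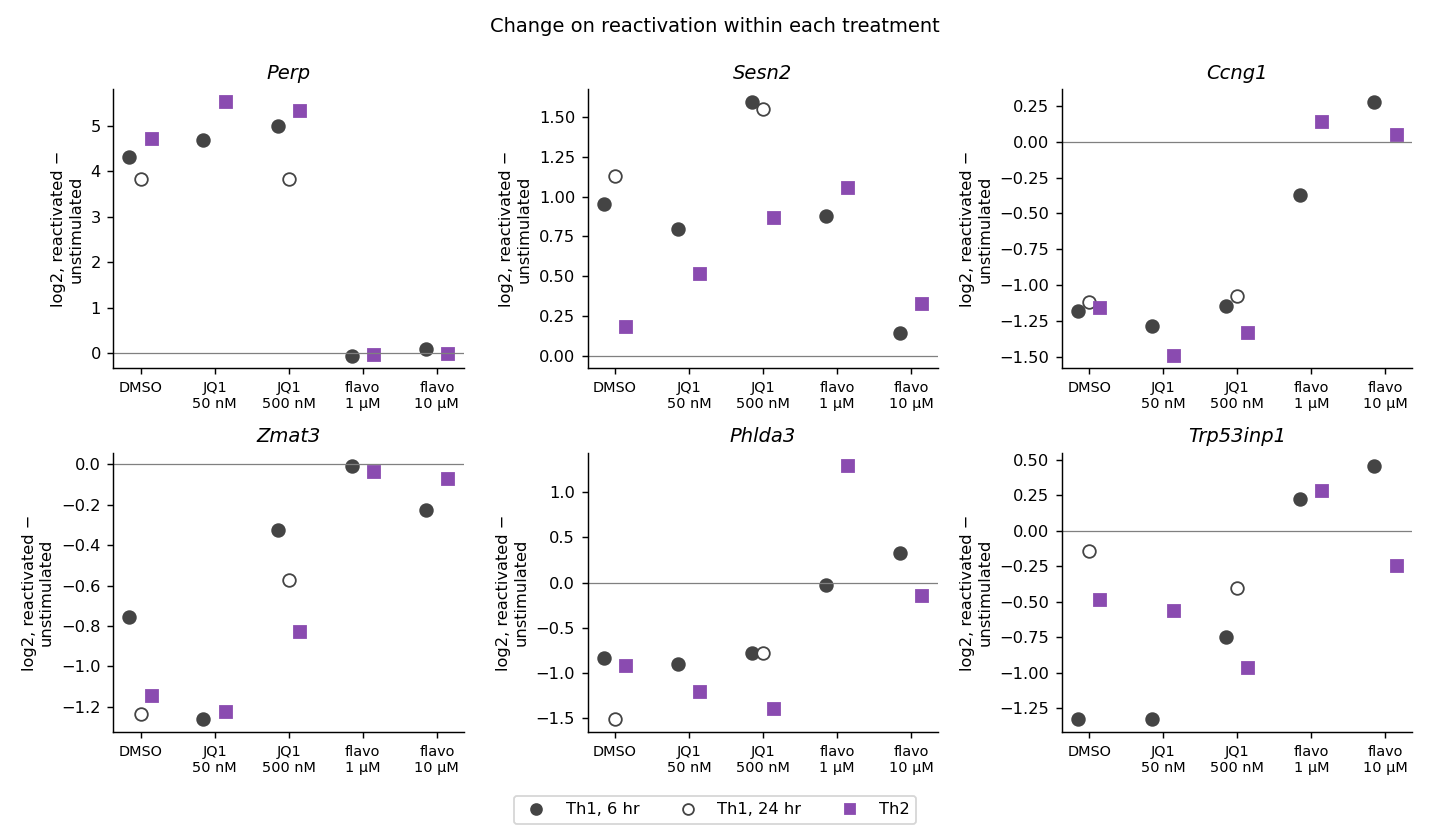
Difference in log2 ratio between the reactivated and the unstimulated array (y axis) within each treatment (x axis; flavo, flavopiridol) for 6 members, in Th1 cells at 6 hr (filled circles) and 24 hr (open circles) and in Th2 cells (squares). The step of Perp is 3.83 to 5.53 with DMSO or JQ1 and -0.06 to 0.09 with flavopiridol.

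With JQ1 the called differences were those of Perp, 0.65 (SE 0.17, limma adjusted p = 0.0346), and Sesn2, 0.66 (SE 0.17, limma adjusted p = 0.0330), each being the change with the drug in reactivated cells minus that in unstimulated cells. The change of Perp was -0.55 in unstimulated and 0.13 in reactivated Th1 cells, and 0.31 and 0.93 in Th2 cells, so that in Th1 cells it had opposite signs in the 2 states. Sesn2 was higher by 0.29 and 0.50 in unstimulated and by 0.93 and 1.18 in reactivated Th1 and Th2 cells. Both calls were lost without any of 6 arrays, the 4 DMSO arrays and the 500 nM arrays of Th1 cells, at 0.51 to 0.75 for Perp and 0.53 to 0.79 for Sesn2. Under spike-in centring the median of all genes in this difference moved by -0.99, and Perp came to -0.50 and Sesn2 to -0.41, neither called.

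The effect of 10 µM flavopiridol in Th1 cells was unlike that in Th2 cells for 2 members, 1 in each direction, beside 13.7% of all genes called by limma, 7.52% higher and 6.13% lower. Mdm2 fell more in Th1 cells, with changes of -2.07 and -2.04 against -0.998 and -1.001 in Th2 cells, a difference of -1.06 (SE 0.17, limma adjusted p = 0.0251). Ccng1 was higher in Th1 than in Th2 cells by 1.02 in this difference of changes (SE 0.22, limma adjusted p = 0.0398). Both calls were lost without any of the 8 flavopiridol arrays, at -0.97 to -1.15 for Mdm2 and 0.78 to 1.27 for Ccng1. The Mdm2 difference was -0.35 under median centring, -0.09 under spike-in centring and -0.15 with the spike-in shift and was called in none of these, while that of Ccng1 was called at 1.48, 1.74 and 1.93. For JQ1 limma called 0 members between the cell types, with 1, Perp (-0.83, limma adjusted p = 0.0709), at an unadjusted p below 0.05, beside 0.612% of all genes, 0.287% higher and 0.325% lower.

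Levels with DMSO in Th1 and Th2 cells are values of single arrays, with no test. Against Th1 cells of 6 hr, Th2 cells had lower values of all 9 members when unstimulated and of 8 when reactivated, where Trp53inp1 was higher by 0.43. The Th1 excess in unstimulated and reactivated cells was 0.59 and 0.40 for Trp53, 0.67 and 0.55 for Mdm2, 0.76 and 0.36 for Cdkn1a, and 1.65 and 1.26 for Perp. Over all genes this difference had a median of -0.04 and 0.01 and an SD of 0.59 and 0.49. The share of all genes lower in Th2 cells was not counted. Against the 24 hr Th1 arrays Perp differed by 0.62 and -0.26, Sesn2 by -0.22 and 0.73, and Trp53inp1 by 0.12 and 0.47, so that each of these 3 changed sign in 1 state with the time of the Th1 array.

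The wider p53 pathway was followed in 3 lists of 69 genes, of which 65 were tested. With 10 µM flavopiridol 9 of the 65 rose and 30 fell, with a median of -0.48 against -0.22 for all genes, of which 48.9% were called, 15.4% higher and 33.5% lower. Under median centring 1 of the 65 rose and 51 fell, and under spike-in centring 0 rose and 62 fell, as over all genes 19 rose and 11346 fell, so that the rises named here are relative to the bulk of genes. Among 25 regulators of p53, 3 rose and 15 fell. Among 17 tested targets for arrest and repair, 0 rose and 6 fell, and among 23 for death and metabolism 6 rose and 9 fell. The largest falls were those of Ddit4, an inhibitor of mTORC1 (-4.11, SE 1.20), Plk2, a polo-like kinase (-2.63, SE 0.63), the death receptor Fas (-2.42, SE 0.33), Topors, a ubiquitin and SUMO ligase (-2.30, SE 0.31), and Bbc3, which codes for the death protein PUMA (-2.07, SE 0.71). The largest rises were those of Dcxr (1.33, SE 0.18), Trp53i11 (1.27, SE 0.18), the kinase gene Hipk2 (1.13, SE 0.15), Cdkn2a (0.97, SE 0.30) and the death gene Bax (0.90, SE 0.11). Plk2 was above background on 1 and Topors on 2 of the 4 arrays with the drug, so that their falls may be understated.

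With 500 nM JQ1, 16 of the 65 list genes rose and 19 fell, with a median of -0.06 against -0.07 for all genes, of which 47.6% were called, 17.7% higher and 29.9% lower. Targets for arrest and repair stood at 9 higher and 3 lower of 17 with a median of 0.41, targets for death and metabolism at 3 higher and 10 lower of 23 with a median of -0.14, and regulators at 4 higher and 6 lower of 25. The genes that rose most were Gadd45a, a stress gene of growth arrest (1.52, SE 0.14), Trp53inp2 (1.42, SE 0.10), Ephx1, an epoxide hydrolase (1.06, SE 0.11), Sesn1, a paralogue of Sesn2 (0.82, SE 0.13), and the repair gene Xpc (0.72, SE 0.10). Those that fell most were Cd82 (-1.18, SE 0.17), Fas (-1.08, SE 0.13), Psrc1 (-1.01, SE 0.13), Trp53bp1, which acts in repair of DNA breaks (-0.93, SE 0.09), and Bax (-0.83, SE 0.09). With the spike-in shift after loess, where the median of all genes moved to -0.52, 22 rather than 35 of these genes were called, 2 higher and 20 lower. Under median centring 6 were higher and 27 lower, and under spike-in centring 2 and 24. At 50 nM 1 of the 65 was called by limma, beside 0.341% of all genes.

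On reactivation 12 of the 65 rose and 27 fell, with a median of -0.21 against -0.05 for all genes, of which 50.9% were called, 21.9% higher and 29% lower. Under spike-in centring 17 rose and 15 fell. Plk2 rose by 4.37 (SE 0.31), the related kinase gene Plk3 by 3.02 (SE 0.22), the nuclease gene Aen by 2.59 (SE 0.29), Cd82 by 1.20 (SE 0.14) and Trp53rkb by 1.16 (SE 0.14). The largest falls were those of Ddit4 (-3.57, SE 0.24), Bbc3 (-3.04, SE 0.22), Ccng2 (-2.54, SE 0.19), Trp53i13 (-2.04, SE 0.28) and Abhd4 (-2.03, SE 0.15). Of 17 arrest and repair targets 3 rose and 8 fell, and of 23 death and metabolism targets 5 rose and 12 fell. The limma adjusted p of all genes named in these 3 comparisons ran from 5.48e-06 to 0.0392.

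Likeness to other genes was measured by Pearson's r of log2 ratios over the 16 DMSO and JQ1 arrays, which share the naive reference, among 10544 genes above background on all of them. It is given as a description. The genes most like Trp53 were Med11 (r = 0.98), Gpr171 (0.96) and Ly6c1 (0.94). Those most like Mdm2 were 1810037I17Rik (0.94), Nlrp1a (0.93) and Lipo3 (0.92). Those most like Cdkn1a were Jun (0.94), Prl2c1 (0.93) and Gadd45g (0.93). Among the members, Ccng1, Phlda3 and Zmat3 were most alike, with r of 0.91 to 0.93, Trp53 and Mdm2 had an r of 0.84, and Perp and Ccng1 ran opposite at -0.85.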

How the data were processed

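The authors hybridised each RNA sample, labelled with Cy3, with naive T cell RNA labelled with Cy5 on Agilent mouse arrays and deposited the scanner output. Used here were its median spot intensity and background intensity in both channels, as deposited, and as an alternative the deposited log10 ratio of red to green. The table of log2 values deposited by the authors served as another alternative. Intensities were corrected by normexp with an offset of 50 and normalized by loess within each array, and log2 of Cy3 over Cy5 was taken. Repeated spots were averaged, and for each gene the probe with the brightest signal was kept, named through RefSeq accessions (GRCm38.p6), which gave 26437 of 55681 probes a symbol. Genes above background in the sample channel of 3 or more arrays of a fit were tested with limma 3.58.1 in R 4.3.3, with contexts or pairs as a block and Benjamini-Hochberg adjustment at 0.05. With 1 array per condition, contexts stand in for replicates, so the p-values measure the spread between contexts. The number of arrays limits the precision. Spot replicates had a median SD of 0.09 to 0.11 log2. The fits were tested on simulated data. A change of 1 on the log2 scale was recovered in 49% of cases for 10 µM flavopiridol and in 53% for reactivation. It was recovered in 94% for 500 nM JQ1 and in 85% between the drugs. Of the calls 2.2% to 6.1% were false, and a member not called may still have changed.

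All 9 members are named, with the 5 list genes that rose and the 5 that fell most in each of 3 comparisons, and the 3 genes most like Trp53, Mdm2 and Cdkn1a. Members and lists were chosen with earlier results of these data known. Alternatives covered background correction, offset, scaling, probe choice, the block, slide, single channel, the deposited values, the doses and times fitted, and each array left out in turn.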

Additional observations from a re-analysis of the deposited data

Results flagged for a closer look

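By an interaction term in limma the effects of the drugs differed between states or cell types for 5 members. The effect of 10 µM flavopiridol differed between reactivated and unstimulated cells by -4.47 for Perp, by 1.33 for Ccng1 and by 0.80 for Zmat3 on the log2 scale. It differed between Th1 and Th2 cells by -1.06 for Mdm2 and by 1.02 for Ccng1. The effect of 500 nM JQ1 differed between reactivated and unstimulated cells by 0.65 for Perp and by 0.66 for Sesn2. Flavopiridol thus gave 3 of 9 members between states, beside 35.2% of all genes called, and 2 between cell types, beside 13.7%, and JQ1 gave 2 between states, beside 13.8%, shares at or near those of all genes. Each test has 2 residual degrees of freedom, and 6 of these 7 differences lost their call without at least 1 array. That of Perp with flavopiridol did not, but it was -2.52 and not called with the scanner software's ratio. The Perp probe was near or below background with 10 µM in both states, so that this difference follows from the step on reactivation with DMSO and has no exact size.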

How the results depend on the processing

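The falls of Mdm2, Perp, Phlda3, Sesn2 and Trp53inp1 with 10 µM flavopiridol, and the changes of Ccng1, Perp, Phlda3 and Zmat3 on reactivation, were called under every alternative run for them. The following values moved or turned, and the cause was not tested. With 10 µM flavopiridol, Trp53 was at -0.77, -1.40 and -0.31 and Zmat3 at -0.68, -1.31 and -0.0301 under median centring, spike-in centring and loess with a spike-in shift. Zmat3 at 1 µM was at -0.15 and -0.67 under the first 2 of these. Against 500 nM JQ1, Trp53 was at -0.27 and -0.68 and Zmat3 at -0.29 and -0.70 under the same 2. With 500 nM JQ1 the 3 scalings gave -0.0404, -0.26 and -0.14 for Cdkn1a, -0.10, -0.32 and -0.24 for Perp, and -0.0545, -0.27 and -0.16 for Trp53inp1. The JQ1 difference between states was -0.50 and -0.51 for Perp and -0.41 and -0.51 for Sesn2 under spike-in centring and the spike-in shift, and Trp53 on reactivation was 0.13 and 0.19. The scanner software's ratio gave Cdkn1a at 1.91 with 10 µM and 1.21 with 1 µM flavopiridol and 1.44 between the drugs, Perp at -0.60 for the JQ1 difference between states, Zmat3 at 0.0358 with JQ1 and Trp53 at 0.0205 on reactivation. Another probe of Cdkn1a gave -1.16 with JQ1, -0.83 on reactivation and 0.99 between the drugs, and the mean of its probes -0.43 with JQ1 and -0.29 on reactivation. Zmat3 with JQ1 was at 0.0535 in the sample channel alone and 0.0347 in the deposited table. In Th1 contexts alone Ccng1 was at 0.0839 with 10 µM and 0.30 between the drugs, and Perp at -0.21 with JQ1. With each array left out in turn, Ccng1 between the drugs lay between -0.53 and 0.0878, Trp53 on reactivation between -0.082 and 0.009, and Zmat3 with JQ1 between -0.16 and 0.0732.

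The number of members called with 10 µM flavopiridol, 8, was 5 with slide as a random block, without the context block and in Th1 contexts, and 5 to 8 with an array left out. With 500 nM JQ1 it was 0 without the block, 1 in Th1 contexts, 2 with the spike-in shift and 3 with the higher dose alone, against 5. The flavopiridol difference between cell types gave 0 members with the software's ratio or the higher dose alone, 1 with an offset of 16 or spike-in centring, 4 with the spike-in shift, and 0 to 4 with an array left out, against 2. Between states it gave 1 with the software's ratio and 1 to 5 with an array left out, against 3. The JQ1 difference between states gave 0 under median centring, the software's ratio, an offset of 16 or no background correction. It gave 0 to 2 with an array left out, against 2. It gave 7 under spike-in centring or the spike-in shift, and with spike-in centring the median of all genes moved too, as given above. The shares of all genes called under the alternatives of this paragraph are not given, so these counts of members are not set against them. That between cell types gave 1 under median centring or the higher dose alone and 0 to 1 with an array left out, against 0. Of the list genes, 39 were called with 10 µM flavopiridol, and 62 under spike-in centring, 20 with the slide block and 24 in Th1 contexts. With 500 nM JQ1 these were 35, and 22 with the spike-in shift, 5 without the block and 20 in Th1 contexts. Slide could not be fitted as a block for reactivation or for the differences between states and cell types. The drug fits were paired by context and the reactivation fit by its 3 pairs. Without the pairs 4 members were called on reactivation, against 5.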
